A study of Mus musculus with 22 samples.

Results

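A set of 9 genes of the osteoblast lineage and of bone mineralization is described across tumor stroma, *Runx2*, *Sp7*, *Dlx5*, *Alpl*, *Phex*, *Ibsp*, *Dmp1*, *Bglap* and *Spp1*. They were chosen by symbol and read by their Ensembl identifiers from the gene counts of every library, and are 9 of 41388 genes counted. Stromal cells of tumors from C57BL/6 mice, labelled as 56 days old, had been sorted by TdTomato (TdT), the red reporter of the Ai9 allele, and by CD45, the surface protein of leukocytes. This gave 4 populations, TdT single positive (TdT+;CD45-), double positive (TdT+;CD45+), CD45 single positive (TdT-;CD45+) and double negative (TdT-;CD45-). Of 22 RNA-seq libraries, 11 are labelled wild type, which are Osx-cre;Ai9 mice, and 11 are labelled Cdh2-cKO, a conditional knockout of N-cadherin (*Cdh2*) that carries Ai9 as well. Each genotype has 2 libraries of TdT single positive cells and 3 of each of the other populations, from 4 wild type and 6 Cdh2-cKO mice that were inoculated with tumor cells. In Osx-cre mice the Cre is driven by the promoter of *Sp7*, the gene for osterix (Osx), in a transgene that doxycycline silences, and the labels call the TdT+ cells of both genotypes Osx+ without naming the Cre of the Cdh2-cKO mice. After first experiments with and without doxycycline, the study states that it used Osx-cre reporter mice fed doxycycline until weaning. The diet of the Cdh2-cKO mice is not given in the sources used here. TdT marks cells, or descendants of cells, in which the transgene was active, and does not report *Sp7* at the time of sorting. The labels call the tumors orthotopic MMTV-BO1, whereas the design text of the series calls them subcutaneous. The GFP+ tumor cells had been separated from the stroma before sorting, according to the study's methods.

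Osteoblasts build bone in steps, from a mesenchymal progenitor to a cell that secretes and mineralizes matrix, and some of them end as osteocytes inside it. The transcription factor Runx2 commits progenitors to this path, Dlx5 is a homeobox factor that acts with it, and Sp7 is required downstream of Runx2. Tissue-nonspecific alkaline phosphatase (*Alpl*) splits pyrophosphate, which inhibits mineral growth, and *Phex* encodes a membrane peptidase of osteoblasts and osteocytes whose loss causes phosphate wasting. Bone sialoprotein (*Ibsp*), *Dmp1* and osteopontin (*Spp1*) are acidic secreted phosphoproteins of one family, *Bglap* encodes osteocalcin, the late marker of osteoblasts, and *Spp1* is also a product of macrophages and of many tumors.

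Between 16594228 and 26784003 reads were counted per library, with a median of 18977040. A gene was taken as detected in a library at 3 counts or more, which corresponded to between 0.103 and 0.201 CPM (the gene's share of counts, scaled to library size). *Ptprc*, which encodes CD45, had between 472 and 1821 CPM in the 12 CD45+ libraries and between 2.45 and 337 CPM in the 10 CD45- libraries, with the highest CD45- level in wild type double negative replicate 3. Wild type CD45 single positive replicate 2 stood apart with 3450 CPM summed over 4 B cell markers, against 9.03 to 16.1 CPM in the other libraries of that population. *Cdh2* was not lower in the libraries labelled Cdh2-cKO, with 17.2 and 13.1 CPM in TdT single positive cells against 9.13 and 5.19 CPM in wild type, and where the deleted sequence lies in the counted gene is not given in the sources used here. Directions between genotypes below therefore refer to the libraries labelled Cdh2-cKO.

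The 9 genes ranged from undetected to among the most abundant in these cells. *Runx2* and *Spp1* were detected in 22 of 22 libraries, *Dmp1* in 21, *Phex* in 19, *Ibsp* in 11, *Alpl* in 10, *Dlx5* in 7, *Bglap* in 1 and *Sp7* in 0. In all, 113 of 198 pairs of gene and library passed 3 counts. *Sp7* had 3 counts over the 22 libraries together, 1 each in wild type double negative replicates 1 and 2 and in Cdh2-cKO CD45 single positive replicate 2. The 4 TdT single positive libraries held 0 counts of it, which allows a level of up to 0.0311 CPM over that population, and the 6 double positive libraries held 0 counts, which allows up to 0.0277 CPM. No *Sp7* read was thus counted in any of the 10 TdT+ libraries at this depth. By real-time PCR the study did detect *Sp7* in TdT+ cells of melanoma tumors and not in their TdT- fraction, in another tumor and by another method. The name of the Osx-cre transgene includes EGFP, and GFP+ cells were separated before sorting. Whether this removed cells in which the transgene was active was not tested. *Bglap* had 6 counts in all, 3 of them in Cdh2-cKO CD45 single positive replicate 1 and 0 in TdT single positive cells. Its near-identical copies *Bglap2* and *Bglap3* had 14 counts each, and since only uniquely aligned reads were counted, reads shared between the copies would be missing from all of them. Floors and counts of this kind cover counting error only.

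**Figure D1:**
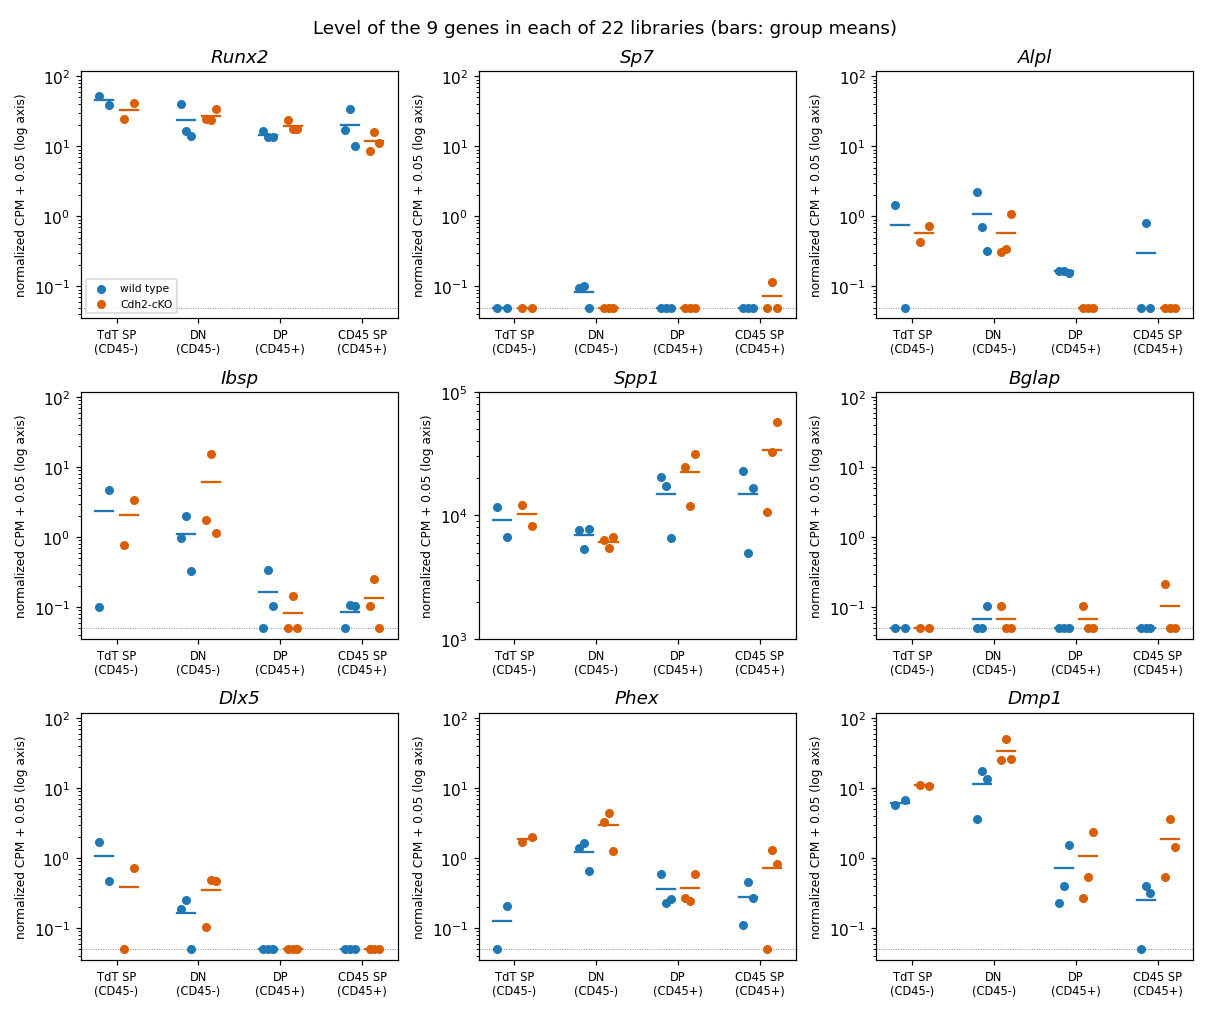
Normalized CPM plus 0.05 (log axis) of the 9 genes in 22 libraries, by population and genotype; points are libraries, bars are group means and the dotted line marks 0 CPM. Spp1, on its own axis, lies between 4947 and 57146 CPM, Runx2 between 8.57 and 52.4 CPM, and Dlx5 has 0 CPM in all 12 CD45+ libraries.

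*Dmp1*, *Ibsp* and *Spp1* lie in one cluster of 5 genes on chromosome 5 together with *Dspp* and *Mepe*, over 270339 bases of GRCm38. *Dmp1* occupies chr5:104202617-104214102, *Ibsp* chr5:104299171-104311469 and *Spp1* chr5:104435118-104441050, all on the plus strand, and 123648 bases separate the end of *Ibsp* from the start of *Spp1*. Per length, as the authors' RPKM, the neighbors differed widely. The median RPKM of *Spp1* was 4575 in double negative cells and 10688 in CD45 single positive cells, whereas *Dmp1* had medians of 8.61 and 0.144 RPKM and *Ibsp* of 0.791 and 0.0239 RPKM in the same populations. *Dspp*, a gene of dentin, had 4 counts and *Mepe*, a gene of osteocytes, had 5 counts over all 22 libraries. Among the 3 detected neighbors, the median of *Spp1* was 531 times that of *Dmp1* in double negative cells and 74450 times in CD45 single positive cells.

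The 250 bases before the RefSeq start sites of the 3 detected neighbors are printed here from GRCm38.p6, 5′ to 3′, since they are the sequences beside which these levels differ. Capitals mark ACCACA, the core letters read by Runx proteins, searched on both strands. The windows are chr5:104202367-104202616 for *Dmp1*, chr5:104299037-104299286 for *Ibsp* and chr5:104434861-104435110 for *Spp1*, all plus strand.
Dmp1: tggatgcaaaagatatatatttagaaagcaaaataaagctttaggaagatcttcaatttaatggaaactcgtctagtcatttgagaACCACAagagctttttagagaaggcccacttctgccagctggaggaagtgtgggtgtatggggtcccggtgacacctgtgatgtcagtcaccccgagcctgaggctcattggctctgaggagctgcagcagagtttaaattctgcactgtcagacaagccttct
Ibsp: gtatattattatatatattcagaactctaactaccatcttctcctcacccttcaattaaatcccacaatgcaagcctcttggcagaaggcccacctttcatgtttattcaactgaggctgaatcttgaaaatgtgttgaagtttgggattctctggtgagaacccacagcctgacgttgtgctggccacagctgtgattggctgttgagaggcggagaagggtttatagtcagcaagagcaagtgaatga
Spp1: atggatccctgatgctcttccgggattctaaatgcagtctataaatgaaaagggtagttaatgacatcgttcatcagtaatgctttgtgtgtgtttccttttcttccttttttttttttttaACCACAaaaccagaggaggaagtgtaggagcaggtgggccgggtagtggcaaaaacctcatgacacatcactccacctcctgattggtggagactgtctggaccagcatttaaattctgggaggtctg
The printed *Spp1* window held 1 match that starts 128 bases before the start site. The printed *Dmp1* window held 1 that starts 164 bases before it, while the *Ibsp* window held 0. *Dmp1* and *Spp1* each have another RefSeq window, farther from the start of the counted gene and not printed, and these held 0 matches. Of 32851 promoter windows of that length in the RefSeq table, 4614 held ACCACA or its reverse complement, and 4 of the 10 windows of the genes described here did, the others being those of *Bglap* and *Runx2*. A match describes the letters of a window and does not show a bound site. The letters TATAAA, on either strand, stood in 12.4% of all windows and in 4 of these 10, among them the windows of *Ibsp* and *Spp1*. Of the 10 windows, *Alpl*, *Dmp1* and *Spp1* account for 2 each, and the table held entries for 7 of the 9 genes.

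**Figure D2:**
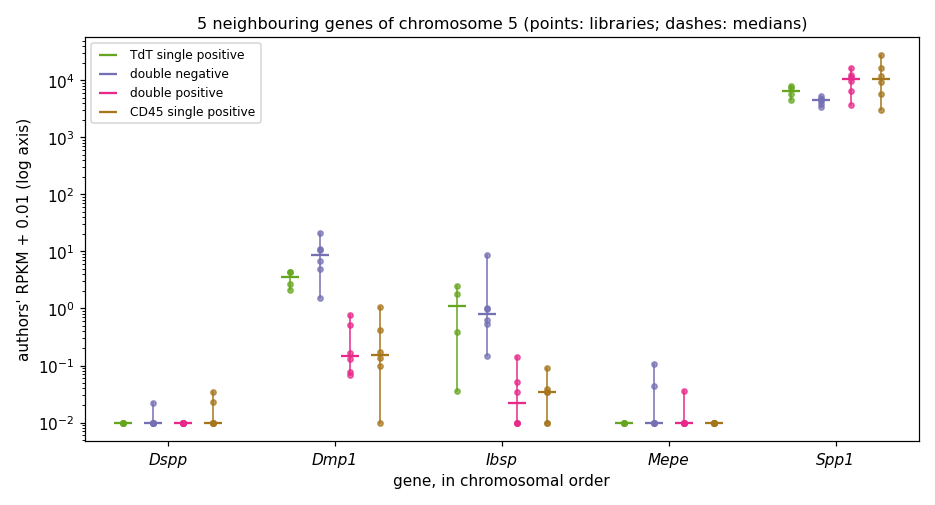
Authors' RPKM plus 0.01 (log axis) of the 5 neighboring genes of chromosome 5 in chromosomal order; points are libraries, dashes are medians and lines span the range within a population. Spp1 lies above 3034 RPKM in every library, Dmp1 and Ibsp are at most 20.97 and 8.66 RPKM, and Dspp and Mepe are at or near 0.

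The comparison of CD45+ with CD45- cells asks whether these genes belong to the immune or the non-immune stroma. *Dmp1* and *Runx2* were lower in CD45+ cells and *Spp1* was higher, and *Alpl* and *Ibsp*, which entered the test only through CD45- libraries, were lower as well. Of the 9 genes, 6 had more than 1 CPM in at least 2 libraries and were tested among 15018 genes with edgeR's quasi-likelihood test. *Sp7*, *Bglap* and *Dlx5* were not tested, *Dlx5* with 1 library over 1 CPM and *Alpl*, just inside, with 3. All libraries over 1 CPM were CD45- for *Alpl* and *Ibsp*, and all but 1 of 8 for *Phex*, so the filter itself favors lower values in CD45+ cells for these genes and their calls are no support for a direction of the whole set. Without the filter *Alpl* (-4.37, adjusted p 0.000552) and *Ibsp* (-5.16, adjusted p 2.98e-06) were called as well. With Benjamini-Hochberg adjusted p values of at most 0.05, 5 of the 6 were called, 1 higher and 4 lower. Wild type alone called 3 of the 6, where 51.1% of all genes were called, and Cdh2-cKO alone called all 6, where 50.7% were. Calls were common over both genotypes, at 63.7% of all genes, 32.6% higher and 31.1% lower, so the count does not set the genes apart from the rest. Without wild type CD45 single positive replicate 2 and wild type double negative replicate 3 together, all 6 were called, *Phex* with -1.60 and an adjusted p of 0.0224, and *Alpl* moved to -5.84. In such bulk libraries, fewer cells that express a gene and less RNA of it per cell cannot be told apart.

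Of the transcription factors, *Runx2* (chr17:44495987-44814797) was present in both compartments. TdT single positive libraries had 52.4 and 38.6 CPM in wild type and 24.3 and 42.3 CPM in Cdh2-cKO. Double negative libraries ranged from 14.2 to 40.5 CPM with a median of 24.3 CPM, double positive libraries from 13.5 to 23.95 with a median of 16.9, and CD45 single positive libraries from 8.57 to 33.9 with a median of 13.7. The CD45+ and CD45- libraries overlapped, and the CD45+ library with the highest level was wild type CD45 single positive replicate 2. *Runx2* was lower in CD45+ cells by edgeR, with a log2 fold change of -0.95 ± 0.22 (SE) and an adjusted p of 0.00109. It was called in each genotype on its own, with -0.94 in wild type and -0.97 in Cdh2-cKO.

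*Dlx5* (chr6:6877805-6882085) had 85 counts in CD45- cells and 0 counts in the 12 CD45+ libraries. In TdT single positive cells it had 32 and 11 counts in wild type and 0 and 15 in Cdh2-cKO. In double negative cells it had 3, 4 and 0 counts in wild type and 1, 9 and 10 in Cdh2-cKO. Every count of this gene thus came from CD45- libraries, 8 of which held at least 1. The pooled level of 0.387 CPM in CD45- cells was at least 27.0-fold higher than the 0.0143 CPM that 3 counts over all CD45+ libraries would give. Without the filter on low counts edgeR called it with an adjusted p of 0.000257, in a fit whose size rests on groups at 0.

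Among the enzymes of mineralization, *Alpl* (chr4:137741733-137796384) was low throughout and nearly absent from CD45+ cells. TdT single positive libraries had 28 and 0 counts in wild type and 11 and 15 in Cdh2-cKO. Double negative libraries had 48, 13 and 5 counts in wild type and 5, 6 and 25 in Cdh2-cKO. Of the CD45+ libraries, the 3 wild type double positive ones had 2 counts each, wild type CD45 single positive replicate 2 had 13 and the other 8 had 0. The log2 fold change of CD45+ against CD45- was -4.35 ± 1.02 (SE) with an adjusted p of 0.00209 by edgeR, and its size rests on groups at 0. Without wild type TdT single positive replicate 1 the remaining library of that group held no count and the fit gave -2.66 with an adjusted p of 1.0. A two-sided permutation test over the 12 and 10 libraries, chosen after the counts had been seen, with 100000 resamples on log2(CPM + 0.1), gave p = 0.00114, and exact tests gave p = 0.121 in wild type and p = 0.00433 in Cdh2-cKO. These permutation tests take libraries as exchangeable whatever their population. Being chosen on the same counts, they are no independent support for the difference. In Cdh2-cKO, where the 6 CD45+ libraries had 0 counts, the CD45- level was at least 18.7-fold higher than the floor of 3 counts over those libraries.

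*Phex* (chrX:157162075-157415312) ranged over 0 to 1.96 CPM among TdT single positive and 0.606 to 4.41 CPM among double negative libraries, and over 0.175 to 0.541 CPM among double positive and 0 to 1.27 CPM among CD45 single positive libraries. The highest 6 libraries were all CD45-. The log2 fold change of CD45+ against CD45- was -1.29 ± 0.56 (SE), with an adjusted p of 0.0511 by edgeR that missed the threshold. It passed under 12 of 30 alternatives, with adjusted p values from 0.00601 to 0.843, and it passed within Cdh2-cKO at -2.31 with an adjusted p of 0.0115. Wild type gave -0.27 with an adjusted p of 0.824, and the difference between genotypes, tested itself, had an adjusted p of 0.668.

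Of the matrix phosphoproteins, *Dmp1* and *Ibsp* were lower in CD45+ cells and *Spp1* was higher. *Dmp1* had 5.61 and 6.70 CPM in wild type and 11.1 and 10.7 CPM in Cdh2-cKO TdT single positive cells. Double negative libraries ranged from 3.54 to 49.6 CPM with a median of 21.3, double positive from 0.178 to 2.35 with a median of 0.418, and CD45 single positive from 0 to 3.55 with a median of 0.419. Within each genotype the CD45+ and CD45- libraries did not overlap. The share of all genes that separate in this way was not counted, so the separation does not set *Dmp1* apart from the rest. Across genotypes, one CD45- library, wild type double negative replicate 1, fell level with the highest CD45+ library. The log2 fold change was -4.14 ± 0.49 (SE) with an adjusted p of 1.43e-06 by edgeR, and it was called under 30 of 30 alternatives.

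*Ibsp* had 1 and 119 counts in wild type and 21 and 73 in Cdh2-cKO TdT single positive cells. Double negative libraries had 20, 38 and 5 counts in wild type and 33, 317 and 26 in Cdh2-cKO. No CD45+ library had more than 5 counts, and 2 of the 12 reached 3. The log2 fold change of CD45+ against CD45- was -5.14 ± 0.82 (SE) with an adjusted p of 3.83e-05 by edgeR. Replicates of one group differed widely, and Cdh2-cKO double negative replicate 2 alone held 317 of the 667 counts of this gene.

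*Spp1* was of another order. It took between 0.5 and 4.57% of all counts and was among the first 10 genes by counts in 22 of 22 libraries, first of all in Cdh2-cKO CD45 single positive replicate 3. TdT single positive libraries had 11610.35 and 6643 CPM in wild type and 12146 and 8275 CPM in Cdh2-cKO. Double negative libraries ranged from 5309 to 7766 CPM with a median of 6477, double positive from 6635 to 31114 with a median of 18904, and CD45 single positive from 4947 to 57146 with a median of 19816. Of the 12 CD45+ libraries, 8 lay above every CD45- library, and the lowest of all 22 was wild type CD45 single positive replicate 2. *Spp1* was 2.55-fold higher in CD45+ cells, with a log2 fold change of 1.35 ± 0.32 (SE) and an adjusted p of 0.00146 by edgeR. Cdh2-cKO alone gave 1.79 with an adjusted p of 0.00393 and wild type alone 0.90 with an adjusted p of 0.103, and the difference between them had an adjusted p of 0.774. The 8 macrophage markers, among them *Csf1r* and *Cd68*, summed to 6515 to 22239 CPM in CD45+ against 151 to 10922 CPM in CD45- libraries. None of them was under 3 counts throughout a population. Among the CD45- libraries, the lowest sum, 151 CPM in wild type TdT single positive replicate 1, stood beside 11610.35 CPM of *Spp1*. The highest sum there, 10922 CPM in wild type double negative replicate 3, stood beside 7766 CPM. Cdh2-cKO TdT single positive replicate 1, with a sum of 7598 CPM, had 12146 CPM, the most *Spp1* among CD45- libraries. Among CD45+ libraries the lowest sum, 6515 CPM in wild type CD45 single positive replicate 2, stood beside the lowest *Spp1*, 4947 CPM. These libraries go in different directions. The part of macrophages in the result was not tested.

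**Figure D3:**
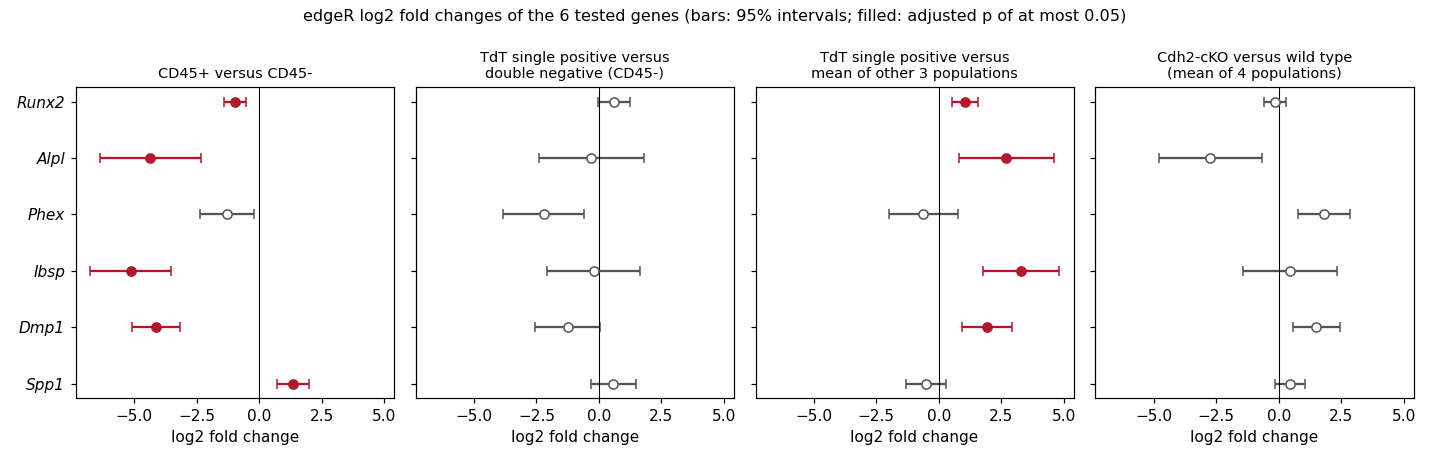
Log2 fold changes of the 6 tested genes in 4 contrasts from edgeR; points are estimates, bars are 95% intervals and filled points have an adjusted p of at most 0.05. Spp1 alone is to the right of 0 for CD45+ versus CD45-, no point is filled for TdT single positive versus double negative or for genotype, and 4 are filled for TdT single positive versus the 3 remaining populations.

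The comparison of TdT single positive with double negative cells asks whether a history of Osx-cre activity marks the CD45- cells that express osteoblast genes. None of the 6 tested genes was called, at adjusted p values from 0.152 to 0.928 by edgeR, where 1.89% of all genes were called and 2847 of 15018 had an unadjusted p under 0.05. limma voomWithQualityWeights called 0 and DESeq2 called 1, *Phex*, at an adjusted p of 0.0498. *Runx2* had a log2 fold change of 0.61, with a 95% interval from -0.03 to 1.24, and *Spp1* of 0.57, from -0.33 to 1.47. *Alpl* (-0.30, from -2.42 to 1.81) and *Ibsp* (-0.21, from -2.08 to 1.66) had intervals that reach several-fold in either direction, so little can be said of them. *Dmp1* (-1.25, from -2.55 to 0.04) and *Phex* (-2.22, from -3.82 to -0.61) had their estimates on the side of the TdT- cells. In 4 of 4 same-numbered pairs of TdT single positive and double negative libraries within a genotype, *Phex* was lower and *Spp1* higher in the TdT+ library. The labels do not give this pairing, and the share of all genes that agree in every pair was not counted. The agreement is therefore no support for a difference in either gene. A fit with the replicate number as a block called 0 of the 6. In Cdh2-cKO the 3 double negative libraries had 25.2 to 49.6 CPM of *Dmp1*, all above the 11.1 and 10.7 CPM of TdT single positive cells. In wild type the groups overlapped. How many of all genes separate like this was not counted, so the separation is not read as a difference.

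Within CD45+ cells, double positive and CD45 single positive cells were compared in the same way. The lowest adjusted p of the 6 genes was 1.0 by edgeR, 0.00666% of all genes were called, and 609 genes had an unadjusted p under 0.05. limma voomWithQualityWeights and DESeq2 also called 0 of the 6. *Dlx5*, *Sp7* and *Bglap* had at most 3 counts in any library of either population.

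Against the average of the 3 remaining populations, the contrast named in the study's methods, TdT single positive cells had higher *Ibsp*, *Alpl*, *Dmp1* and *Runx2* by edgeR. The log2 fold changes were 3.28 ± 0.78 (SE; adjusted p 0.00341) for *Ibsp*, 2.70 ± 0.97 (0.0423) for *Alpl*, 1.92 ± 0.51 (0.00668) for *Dmp1* and 1.04 ± 0.26 (0.00512) for *Runx2*. *Phex* and *Spp1* were not called. limma voomWithQualityWeights, the study's own method, called *Dmp1* (2.35) and *Runx2* (1.13) but neither *Ibsp* (2.47, adjusted p 0.11) nor *Alpl* (1.20, adjusted p 0.24). Calls by edgeR covered 38.1% of all genes, 23.9% higher and 14.2% lower, and the 3 other populations include both CD45+ ones. Against double negative cells alone, log2 fold changes were -1.25 for *Dmp1*, -0.21 for *Ibsp*, -0.30 for *Alpl* and 0.61 for *Runx2*, and edgeR called none of these. *Alpl* and *Ibsp* also entered the test only through CD45- libraries. The calls against the 3 remaining populations therefore do not set TdT single positive cells apart from the other CD45- cells. The call for *Alpl* did not hold in 19 of 29 alternatives and turned to -0.70 without wild type TdT single positive replicate 1. The call for *Ibsp* was lost without wild type TdT single positive replicate 2, at 0.60 with an adjusted p of 0.764, and without Cdh2-cKO replicate 2, at 2.54 with an adjusted p of 0.0542. Without that last library only *Dmp1* was called, *Runx2* then having an adjusted p of 0.069.

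Among the 10 CD45- libraries the genes followed different markers. *Runx2* followed *Col1a1*, the chain of type I collagen, with a Pearson r of 0.95 and Spearman rho of 0.89 (n = 10, log2 CPM), and 0.90 without the 2 libraries farthest from the median of *Col1a1*. *Dmp1*, *Phex* and *Ibsp* instead followed the epithelial keratin *Krt18*, with r of 0.63, 0.87 and 0.75 and rho of 0.79, 0.78 and 0.72. Without the 2 farthest libraries r was 0.74 for *Dmp1*, 0.66 for *Phex* and 0.30 for *Ibsp*, so that of *Ibsp* rests on those libraries. With *Col1a1*, *Dmp1* had r of -0.65 and *Phex* of -0.56. *Krt8* gave like values (0.66, 0.87 and 0.77), whereas *Epcam*, an epithelial surface marker of the same list, had r of 0.13 with *Dmp1*, 0.02 with *Phex* and -0.35 with *Ibsp*. These values are descriptions that pool both CD45- populations and both genotypes, over libraries of 16594228 to 26784003 counts. *Krt18* and *Col1a1* were chosen after values had been seen, and the share of all genes with such r was not counted. Other genes lay closer within the 10 libraries, with r of up to 0.98 for *Runx2* and *Phex*, 0.94 for *Dmp1* and 0.92 for *Ibsp*.

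**Figure D4:**
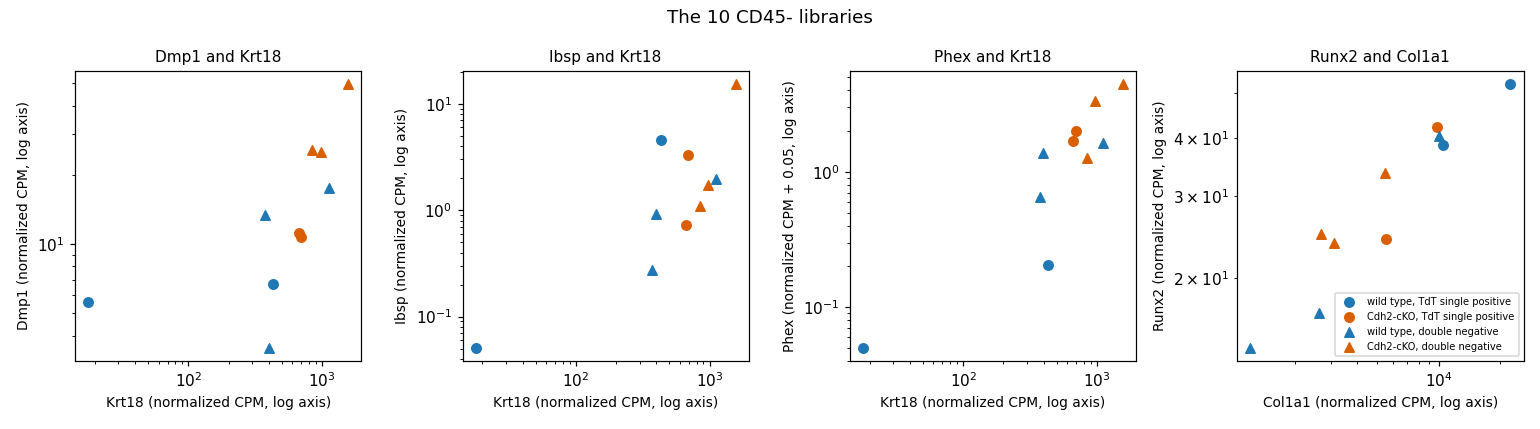
Normalized CPM (log axes) of Dmp1, Ibsp and Phex against Krt18 and of Runx2 against Col1a1 in the 10 CD45- libraries; 0.05 was added to Phex, circles are TdT single positive, triangles double negative, and colors give the genotype. One wild type TdT single positive library, with 17.8 CPM of Krt18, is at the low end of all 3 keratin panels, and Runx2 increases with Col1a1 along the whole range.

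The library at that low end was wild type TdT single positive replicate 1, with 17.8 CPM of *Krt18* against 372 to 1569.6 CPM in the other 9. It had 0 counts of *Phex* and 1 of *Ibsp*, yet the highest *Runx2*, *Dlx5* and *Col1a1* of all 22 libraries, at 52.4, 1.63 and 22366 CPM. Cdh2-cKO double negative replicate 2 was at the other end, with the most *Krt18*, *Dmp1*, *Ibsp* and *Phex*. The 5 epithelial markers summed to 26.5 to 909 CPM in TdT single positive and 475 to 1985 CPM in double negative cells, against 26.1 to 219 CPM in CD45+ cells, and were nearly all *Krt18* and *Krt8*. *Krt5* was under 3 counts in all TdT single positive, double positive and CD45 single positive libraries and *Krt14* in all double positive ones. *Epcam* went the other way, with a median of 2.27 CPM in CD45+ and 0.023 CPM in CD45- libraries. The 7 fibroblast markers summed to 13758 to 59707 CPM in TdT single positive, 4276 to 32221 CPM in double negative and 62.2 to 216 CPM in CD45+ cells, none of the 7 under 3 counts throughout a population. The part of either cell type in these results was not tested. The 4 chondrocyte markers summed to at most 1.03 CPM in any library.

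The genes most like each were taken by Pearson r of log2 CPM over all 22 libraries, which pool CD45+ and CD45- cells, and r within the 10 CD45- libraries is given beside it. For *Runx2* these were *Selenon*, *Zbtb4* and *Akt2* (0.91 to 0.92 over all, 0.88 to 0.92 within CD45-). For *Phex* they were *Cxadr*, *Nefl* and *Wfdc2* (0.88 to 0.90, and 0.90 to 0.97 within). For *Ibsp* they were *Cdh15*, *Krtdap* and *Cldnd1* (0.91 to 0.94, and 0.78 to 0.85 within). For *Dmp1* they were *Scrn1*, *Tcim* and *Tm4sf1* (0.94 to 0.95, and 0.68 to 0.74 within). For *Spp1* they were *Tmem202*, *Fmn1* and *Rragc* (0.87 to 0.88), with 0.29, 0.92 and 0.37 within.

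Between genotypes, edgeR called none of the 6 tested genes. As the mean of the 4 populations, the 6 tested genes had adjusted p values from 0.301 to 0.905 by edgeR, where 0% of all genes were called and 1728 of 15018 had an unadjusted p under 0.05. limma voomWithQualityWeights called 0 and DESeq2 called 1, *Phex*, at 1.86 with an adjusted p of 0.0482. *Phex* had 0 and 0.155 CPM in wild type against 1.65 and 1.96 CPM in the Cdh2-cKO TdT single positive libraries, and 1.33, 1.59 and 0.606 against 3.26, 4.41 and 1.21 CPM in the double negative libraries. As the average over populations it was 1.81 higher on the log2 scale (95% interval from 0.75 to 2.87, unadjusted p 0.00372, adjusted p 0.301). *Dmp1* was 2.83-fold higher (log2 interval 0.57 to 2.44, adjusted p 0.322) and was higher in the Cdh2-cKO than in the wild type TdT single positive and double negative libraries without overlap within either population. The share of all genes that separate in this way was not counted, so the separation is not read as a difference between genotypes. *Krt18* had 666 and 693 against 17.8 and 432 CPM in TdT single positive libraries, without overlap, but 973, 1569.6 and 845 against 397, 1116 and 372 CPM in double negative libraries, with overlap, and its part in the values was not tested. *Alpl* had -2.73 (-4.80 to -0.65, adjusted p 0.369), in a fit with Cdh2-cKO groups at 0. *Ibsp* (0.45, -1.43 to 2.33), *Spp1* (0.44, -0.17 to 1.05) and *Runx2* (-0.14, -0.57 to 0.29) gave smaller estimates.

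Within single populations, edgeR called 0 of the 6 genes between genotypes in each of the 4, the lowest adjusted p being 0.318 among TdT single positive, 1.0 among double positive, 0.417 among CD45 single positive and 0.572 among double negative libraries. At most 0.00666% of all genes were called there. No difference of the CD45 contrast or of the TdT contrast between genotypes was called for any of them, with lowest adjusted p values of 0.653 and 0.58.

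Other genes of bone were set beside these by 6 lists. The counts below stand beside 31.1% of all genes lower and 32.6% higher, and a median of 0.06 over all genes. The filter on low counts favors lower values in CD45+ cells for listed genes that passed it mainly through CD45- libraries. *Pth1r*, for one, had at most 1.36 CPM in any CD45+ library. How many listed genes this concerns was not counted, so the counts and medians are no support for a direction of a whole list. Of 13 bone matrix genes 9 were tested, 8 lower and 1 higher in CD45+ cells, with a median log2 fold change of -7.46 over those tested. The higher one was *Ifitm5* (0.79 ± 0.30 SE, adjusted p 0.0293 by edgeR). The collagen chaperone *Serpinh1* (-7.51 ± 0.33 SE), the collagen-modifying *Fkbp10* (-7.34 ± 0.34), the matrix glycoprotein *Sparc* (-6.99 ± 0.33) and the collagen chain *Col1a2* (-7.72 ± 0.38) had the lowest adjusted p values, at most 6.35e-11 by edgeR. Among 13 transcription factors of the lineage, 11 were tested, 7 lower and 1 higher, with a median of -2.22, the higher one being *Cbfb*, the partner of Runx2 (0.79 ± 0.13). Among 12 genes of mineralization and phosphate handling, 10 were tested, 7 lower and 1 higher, with a median of -1.26, the higher one being *Enpp1*, which makes pyrophosphate (1.33 ± 0.29). Of 12 signals and receptors, 10 were lower and 0 higher, with a median of -3.67, among them the parathyroid hormone receptor *Pth1r* (-4.70 ± 0.44). Of 6 osteocyte genes only *Cd44* and *Tnfrsf11b* passed the filter and *Tnfrsf11b* was lower, while *Sost* was under 3 counts in every library. *Pdpn* is listed at 0 in all 22 libraries, including those rich in fibroblast genes, and whether it was absent or was not counted was not tested. For osteopontin, 7 receptor genes were tested: the integrin genes *Itga4* (2.35 ± 0.42) and *Itga9* (0.58 ± 0.19) were higher and *Itgb3*, *Itgb1*, *Itgb5* and *Itgav* lower in CD45+ cells, and *Cd44* had 0.06 ± 0.13 and was not called. Between TdT single positive and double negative cells, and between genotypes as the mean of the 4 populations, edgeR called 0 genes of each of these 6 lists.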

How the data were processed

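Whole-transcriptome RNA-seq of sorted stromal cells was read from 22 libraries. The authors prepared amplified cDNA (SMARTer), aligned the reads with STAR 2.0.4b to GRCm38 with Ensembl genes and counted uniquely aligned, unambiguous reads with featureCounts (given as 1.45 in the submitters' processing notes). The deposited counts are whole numbers per gene without normalization. The deposited RPKM values are those counts scaled by library size and by kilobase of gene length, computed by the authors, and were used only to compare levels between genes. Deposited CPM columns were not used.

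Members and gene lists were chosen with earlier results of these data known. Named genes are the 9 members in every library, *Ptprc* and *Cdh2* as checks, at most 4 called genes of the fixed lists by lowest adjusted p, and the 3 genes most correlated with each member detected in at least 11 libraries. Additional genes (*Krt18*, *Col1a1*, *Csf1r*, *Cd68*, *Krt5*, *Ifitm5*, *Cbfb*, *Enpp1*, *Pth1r*, *Tnfrsf11b* and the integrin genes) were named after their values had been seen.

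After 355 rRNA genes were removed, a gene was tested if it exceeded 1 CPM in 2 or more libraries, which left 15018. Normalized CPM are counts over TMM-scaled totals. edgeR 4.0.16 in R 4.3.3 fitted 8 group means with a quasi-likelihood model (glmQLFit, glmQLFTest), p values were adjusted by Benjamini-Hochberg, and SEs were derived from the test, with 95% intervals from the normal distribution. The fits were tested on simulated data. Alternatives were limma 3.58.1 voomWithQualityWeights, the method of the study, DESeq2 1.42.0, RLE factors, no filter, a fold threshold, a replicate block, leaving out each library and both libraries that stood apart (wild type CD45 single positive replicate 2 and double negative replicate 3). Permutation tests and a fit with 1 mean per CD45 class were added after seeing the data. Promoter sequences come from RefSeq (GRCm38.p6). The labels call the libraries biological replicates but do not tie them to animals. Between replicates, chi-square over degrees of freedom was 49.7 to 408.9 (20 pairs), so no 2 libraries agreed within sampling noise, which does not show that they came from separate animals. Same-numbered TdT single positive and double negative libraries correlated in their deviations from the group means in 4 of 4 pairs (r from 0.113 to 0.593). With 2 TdT single positive libraries per genotype, their deviations mirror each other, so these 4 pairs are not independent. Wild type TdT single positive replicate 2 had r of 0.428 with double negative replicate 3 and 0.215 with double negative replicate 2. Neither the data nor the labels thus settle whether the numbers pair these libraries. If replicates came from the same animals, p values measure technical spread only.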

Additional observations from a re-analysis of the deposited data

How the results depend on the processing

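Between CD45+ and CD45- cells 5 genes were called, and 3 when a log2 fold change of at least 2 was also required. Leaving out single libraries gave 5 to 6. Between TdT single positive and double negative cells the number was 0, and 1 with DESeq2. For TdT single positive cells versus the 3 remaining populations it was 4, fell to 2 with limma voomWithQualityWeights and to 2 with the fold threshold, and lay between 1 and 4 with single libraries left out, the lowest without Cdh2-cKO TdT single positive replicate 2. Between genotypes it was 0, and 1 with DESeq2. *Runx2* between genotypes turned from -0.14 to 0.03 with limma voomWithQualityWeights, and lay between -0.26 and 0.01 with single libraries left out. The same ranges were -0.23 to 1.79 for *Ibsp* between genotypes, -0.7 to 3.58 for *Alpl* in TdT single positive cells versus the remaining populations, and -3.7 to 0.27 for *Alpl* and -2.89 to 0.84 for *Ibsp* between TdT single positive and double negative cells. The cause was not tested.

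Whether replicate numbers pair the libraries across all populations was not settled. Of 30 same-numbered pairs within a genotype, 10 had a correlation of deviations over 0.1, and the 30 ranged from -0.296 to 0.593. All 4 pairs of TdT single positive with double negative libraries were among the 10. Low values in groups of 2 or 3 libraries cannot exclude pairing. With the replicate block, 5 genes were called between CD45+ and CD45- cells, 3 for TdT single positive cells versus the remaining populations (*Alpl* at 2.49, adjusted p 0.115) and 0 in the other contrasts it was fitted for. Depth limits statements on *Sp7*, *Bglap*, *Dlx5* and *Alpl*, whose counts lie at or near the floor of 3.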
